A study of Mus musculus with 10 samples.

Results

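Mouse intestinal cells exposed to the R-spondin Rspo1, a secreted amplifier of the Wnt signal, were compared with cells exposed to the inert protein Fc. The comparison took the 3 Rspo1 libraries and the 2 Fc control libraries of 1 bulk RNA sequencing table, 5 of the 10 labelled samples, chosen by treatment and sort and not by any measured value. It was described over 11454 genes with at least 1 FPKM (fragments per kilobase of transcript, scaled to the mapped fragments of the library) in at least 2 of the 8 libraries, of 23969 gene symbols in the table. Every mouse carried the Lgr5-eGFP-IRES-CreER allele, which places GFP and an inducible recombinase under control of the Lgr5 locus, and every mouse was injected intravenously with an adenovirus before the harvest. The virus carried Rspo1 (labelled Rspo GOF) or, in the control, Fc. A further 3 libraries from mice given a virus with the LGR5 extracellular domain (LGR5-ECD, labelled Rspo LOF) shared in the estimate of the spread. Proximal jejunum was dissociated and GFP-positive cells were sorted. The time after injection was unstated, with age, sex and strain of the mice not given in the sources used here.

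Because the sort gate and the Lgr5 transcript share a locus, the level of Lgr5 is not independent of how the cells were selected. Neither the sort nor a sample is named by the 2 control columns. They were taken for GFP-positive Fc cells because the series text counts 2 such control replicates, and every comparison below rests on that reading. They are called control 1 and control 2 after their columns. According to the series text the samples were biological replicates. Summed FPKM was 239904 to 275937 in the Rspo1 libraries, against 227238 and 189335 in controls 1 and 2, and 14109 to 14197 symbols were above 0 in the Rspo1 libraries, against 13417 and 13420 in the controls. Read depth is unknown. The Rspo1 libraries correlated with each other at r = 0.959 to 0.966 across genes on the log2(FPKM + 1) scale, and the controls with each other at 0.921. A 2-fold difference (a difference of 1 on that scale) separated 353 to 470 genes between Rspo1 libraries and 1166 between the controls. LGR5-ECD 3 stood apart with 11485 symbols above 0. The epithelial markers Epcam, Cdh1, Krt8 and Vil1 were between 65.6 and 406 FPKM in all 5 libraries, the stem cell markers Lgr5 and Olfm4 were present in each, and the leukocyte gene Ptprc was at or below 0.210 FPKM. In the Rspo1 libraries the summed FPKM of 29 immune markers was 34.1 to 38.4, against 22.5 in control 1 and 7.5 in control 2, and Lcp1, an actin-bundling protein, gave most of it.

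R-spondins bind the receptors LGR4, LGR5 and LGR6 and hold back the membrane ligases RNF43 and ZNRF3, which otherwise remove Frizzled receptors from the cell surface. With the ligases held back, more Wnt receptor stays on the cell, beta-catenin enters the nucleus and TCF/LEF factors switch on their target genes. In the small intestine this signal keeps the Lgr5-positive stem cells at the crypt base and drives the maturation of their neighbours, the Paneth cells, which secrete lysozyme and alpha-defensins. Cells that leave the crypt base become absorptive enterocytes or goblet, enteroendocrine and tuft cells. A separate pathway runs through the data as well. Interferons act through the receptors IFNAR, IFNLR and IFNGR on transcription factors such as STAT2 and IRF9, which bind interferon-stimulated response elements and turn on antiviral genes.

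Promoters of antiviral genes that were lower and of a defensin gene that was higher in Rspo1 are shown, to be read beside the values that follow. Only promoters that hold the element marked in capitals were printed, so finding it in them is no result. The sequences are the 120 bases before the annotated start, from RefSeq on GRCm38.p6, read 5′ to 3′ on the strand of the gene. Capitals mark the core of the interferon-stimulated response element (GAAA, any 2 bases, GAAA), read on either strand, in the antiviral genes, and ATCAAAG, a TCF/LEF core, in the defensin gene.
Isg15, chr4:156200819-156200938, minus strand: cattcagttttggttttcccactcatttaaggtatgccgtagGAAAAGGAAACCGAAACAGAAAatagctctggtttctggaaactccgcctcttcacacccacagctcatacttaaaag
Ifit1, chr19:34640769-34640888, plus strand: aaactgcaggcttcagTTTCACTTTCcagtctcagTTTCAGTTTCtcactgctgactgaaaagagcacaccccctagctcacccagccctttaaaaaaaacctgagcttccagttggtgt
Oas3, chr5:120777660-120777779, minus strand: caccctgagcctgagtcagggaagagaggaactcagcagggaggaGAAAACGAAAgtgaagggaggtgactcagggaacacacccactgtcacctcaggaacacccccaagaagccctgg
Oas1a, chr5:120907526-120907645, minus strand: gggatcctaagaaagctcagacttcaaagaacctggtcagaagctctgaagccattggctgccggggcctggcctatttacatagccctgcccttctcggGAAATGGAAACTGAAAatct
Apol9a, chr15:77411081-77411200, minus strand: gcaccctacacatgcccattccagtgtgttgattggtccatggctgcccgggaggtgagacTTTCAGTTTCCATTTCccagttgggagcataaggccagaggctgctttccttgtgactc
Defa22, chr8:21162157-21162276, plus strand: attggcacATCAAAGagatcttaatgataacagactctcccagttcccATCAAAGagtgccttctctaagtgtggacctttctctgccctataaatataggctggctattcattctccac
The Isg15 stretch holds 3 overlapping copies, Ifit1 2 separate ones, Oas1a and Apol9a 2 overlapping ones each, and Oas3 1. The stretch before Defa21, at chr8:21025425-21025544 on the plus strand, was identical to that of Defa22 at all 120 bases.

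A window from 250 bases before to 50 after the start was found for 9187 of the genes tested, and 3.59% of these windows held the response element core on either strand, against 3.99% of the 27025 promoters in the RefSeq table. Among genes lower in Rspo1 by the test described next, 51 of 66 had a window and 10 of these (19.6%) held the element. The 10 were Apol9a, Apol9b, Apol10a, Oas1a, Oas1g, Oas3, Ifit1, Isg15, Stat2 and Tcirg1, while Oas2, Mx1 and Usp18 were not among them. Isg15 reached 1 FPKM in 2 libraries only through the controls and so had to differ. Apol9a and Apol9b held the same motif sequences, as did Oas1a and Oas1g, so the 10 are not independent promoters. For genes higher in Rspo1 the count was 2 of 58 (3.45%). Of the 35 antiviral effector genes with a window, 20 (57.1%) held it. Antiviral genes that held it but were not called include Ifit3, Rsad2 and Irgm1. The TCF/LEF core ATCAAAG, also read on either strand, was in 3.21% of the windows of genes tested, 6 of 58 (10.3%) of those of genes higher in Rspo1, 1.96% of those of genes lower in Rspo1 and 3 of 16 (18.8%) of those of Wnt targets. The 6 were Mmp7, Tnfrsf19, Wwtr1 and the defensin genes Defa21, Defa22 and Gm15293 (Defa41 in RefSeq). Since Defa21 and Defa22 share an identical printed stretch, the 6 are not independent promoters. The 5 defensin genes with a window, Defa2, Defa21, Defa22, Defa23 and Defa-rs7, each held 2 copies; the other 7 defensin genes tested had no entry. The shares describe letters in a window and were not tested.

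Genes that were higher in Rspo1 cells included stem cell, Paneth cell and immediate early genes, and genes that were lower included antiviral and enterocyte genes. In limma's moderated test with Benjamini-Hochberg adjustment over all genes tested (adjusted p under 0.05), 143 genes were called (1.25% of 11454), of which 77 were higher in Rspo1 (0.672%) and 66 were lower (0.576%). Every one of them had all 3 Rspo1 libraries on the same side of both controls. That position by itself is common, since 26.2% of all genes had every Rspo1 library above both controls and 12% had every one below. The log2 change was above 0 for 62.9% of all genes and below 0 for 37.0%. The median log2 change of all genes was 0.16 as deposited and 0.01 after median-ratio or quantile scaling. Against control 1 alone it was 0.04, and against control 2 alone 0.25. List medians below are to be read against 0.16, and those for control 1 or control 2 alone against 0.04 or 0.25. Counts of called list members are to be read against 0.672% of all genes higher and 0.576% lower. Of the called genes 53.8% were higher as deposited, and 41.0% after either scaling. Of the called genes 2 higher and 6 lower ones met the filter on low values only through the group in which they were higher, so that they had to differ. A log2 change is a difference of mean log2(FPKM + 1) and understates the change of low genes. In bulk samples fewer cells of a type and less RNA per cell cannot be told apart.

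The controls differed from each other, so each gene was also set against either control alone. Against control 1 alone 24 genes were called (0.21%), 11 higher (0.096%) and 13 lower (0.113%). Against control 2 alone 456 were called (3.98%), 362 higher (3.16%) and 94 lower (0.821%). In these fits the lone control is assumed to vary like the other groups. Of the 77 higher genes, 10 were called against control 1, 59 against control 2 and 8 against each, and their median change was 1.46 against control 1 and 1.94 against control 2. Of the 66 lower genes, 11 were called against control 1 and 43 against control 2, and the 11 were called against each; the medians were -1.73 and -1.90. Leaving out 1 Rspo1 library gave 23, 8 and 12 genes higher and 28, 16 and 25 lower without libraries 1, 2 and 3. Without LGR5-ECD 3 the counts were 241 and 160. Without any single library in turn, 4 of the higher genes kept their call, Rnase1, Thbs1 (1 of the 2 just described), Lbh and Pnrc1, and 10 of the lower ones did, among them Oas2, Oas1a, Ifi27l2b, Ifit1, H2-Q5, Zbp1, Apol9a, Helz2 and Naaladl1. Every other call given here was lost without at least 1 library.

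**Figure D1:**
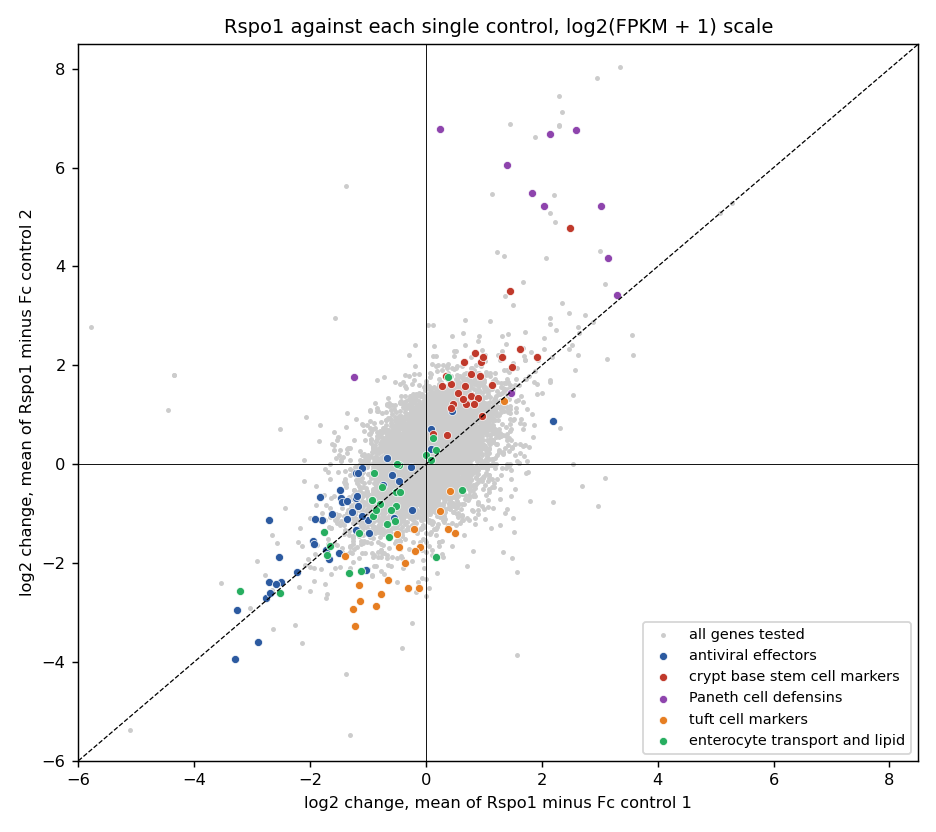
Log2 change of each gene on the log2(FPKM + 1) scale, mean of the 3 Rspo1 libraries minus control 1 (horizontal axis) and minus control 2 (vertical axis), with gene lists in colour; points on the dashed line differ equally from both controls. Antiviral effectors lie along the line at the lower left, with list medians of -1.36 and -1.04, while defensins (1.93 and 5.36) and tuft cell markers (-0.37 and -1.86) lie far from it.

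Transcript of the ligand itself was listed at 0 FPKM for Rspo1 in all 8 libraries, so the sorted cells give no check of the virus. Among its receptors, Lgr5 had 96.5, 113 and 100.2 FPKM in the Rspo1 libraries, against 40.6 and 22 FPKM in controls 1 and 2. The Rspo1 libraries lay close together and above both controls, and the controls were apart from each other. The log2 change was 1.75 (SE 0.36, adjusted p = 0.047), with 1.32 against control 1 and 2.17 against control 2. The call was lost without control 2 (adjusted p = 0.364) and without Rspo1 library 1, Rspo1 library 2 or Rspo1 library 3. Lgr4, the more widely expressed receptor, was at 32.2, 35.8 and 33.5 FPKM in Rspo1 cells and 22 and 12.7 FPKM in the controls (adjusted p = 0.0844). The ligase gene Znrf3 was at 28.4, 27.2 and 26.4 FPKM in Rspo1 cells and 15 and 11.2 FPKM in the controls, and did not pass (log2 change 1.02, adjusted p = 0.10). Rnf43, its partner ligase, was at 118, 121 and 120.2 FPKM in Rspo1 cells, close to each other, and at 92.9 and 79 FPKM in the controls, below every Rspo1 library (log2 change 0.48, adjusted p = 0.398). Of the Frizzled receptors and co-receptors 0 of 11 were called in limma's test, and their median log2 change was 0.52 (0.24 and 0.69 against controls 1 and 2); Fzd2 had the largest, at 6.18, 10.6 and 8.55 FPKM in Rspo1 cells and 3.16 and 1.88 FPKM in the controls (adjusted p = 0.0768). Lrp5 was within the range of the controls or below it, at 26.1, 33.3 and 31.1 FPKM in Rspo1 cells and 35.1 and 32.3 FPKM in the controls.

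The list of crypt base stem cell markers had 28 members tested, of which 5 rose in Rspo1 and 0 fell, where 0.672% of all genes rose. Without Lgr5, whose locus drives the sort, 4 of 27 rose. Of the 28, 26 had every Rspo1 library above both controls, where 26.2% of all genes did. The median log2 change was 1.12, with 0.80 against control 1 and 1.61 against control 2. The 5 were Lgr5, Pla2g2a, Tnfrsf19, Phlda1 and Cd44, and Pla2g2a is also a Paneth cell gene. Mean log2(FPKM + 1) of the list was 5.71, 5.85 and 5.91 in the Rspo1 libraries, against 4.93 and 4.05 in controls 1 and 2. The count of members that rose was 14 without control 1, 1 without control 2, 2, 0 and 0 without Rspo1 libraries 1, 2 and 3, and 11 without LGR5-ECD 3.

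Phlda1, a Wnt-responsive marker of crypt stem cells, had 13.3, 16.5 and 22.9 FPKM in the Rspo1 libraries and 3.81 and 3.03 FPKM in the controls. The controls lay together and far below, and the log2 change was 2.04 (SE 0.33, adjusted p = 0.0203). Cd44, a surface glycoprotein and Wnt target, was at 60.03, 61 and 60.8 FPKM in Rspo1 cells, against 27.1 and 19.2 FPKM in the controls, a change of 1.37 (SE 0.24, adjusted p = 0.0282). Its 3 Rspo1 values were nearly equal. Tnfrsf19 (Troy), a receptor that marks crypt base cells, was at 12.4, 18 and 20.1 FPKM in Rspo1 cells and 5.38 and 0.548 FPKM in controls 1 and 2, so the controls differed from each other by more than Rspo1 differed from control 1 on this scale (1.46 and 3.50 against controls 1 and 2). The adjusted p was 0.0464, and 0.254 against control 1 alone. The most abundant marker, Olfm4, a secreted glycoprotein of stem cells, had 1390.0, 1466 and 1316 FPKM in Rspo1 cells and 771 and 292 FPKM in the controls and did not pass (log2 change 1.55, SE 0.67, adjusted p = 0.276). Ascl2, the transcription factor of stem cell identity, was at 39.4, 29.6 and 36.9 FPKM in Rspo1 cells, against 28.9 and 11 FPKM in the controls, where control 1 was close to the lowest Rspo1 library (adjusted p = 0.458). Smoc2, a matricellular protein, was at 81.7, 87.4 and 79.1 FPKM in Rspo1 cells and 56.2 and 29.8 FPKM in the controls (adjusted p = 0.109). For all 3 the values of control 2 were the lowest of the 5 libraries.

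Wnt targets and feedback inhibitors gave 5 rises and 0 falls among 22 tested, where 0.672% of all genes rose. The median log2 change was 0.98 (0.71 against control 1 and 1.31 against control 2). Of the 22, 16 had every Rspo1 library above both controls and 1 had every one below, where 26.2% and 12% of all genes did. Of the 5 that rose, Lgr5, Tnfrsf19 and Cd44 are shared with the stem cell list, and the other 2 were Mmp7 and Nkd1. Nkd1, an inhibitor of Dishevelled that Wnt induces, had 8.32, 12.2 and 15.1 FPKM in the Rspo1 libraries and 2.84 and 1.92 FPKM in the controls, with no overlap (log2 change 1.91, SE 0.33, adjusted p = 0.0282). Mmp7 encodes matrilysin, the protease that activates alpha-defensins in mouse Paneth cells. It had 34.5, 52.2 and 69.96 FPKM in Rspo1 cells and 8.23 and 5.12 FPKM in the controls, and the log2 change of 2.77 (SE 0.31, adjusted p = 0.00455) was 2.47 and 3.06 against controls 1 and 2. Axin2, a widely used reporter of Wnt signalling, was at 119, 124 and 126 FPKM in Rspo1 cells, against 90.4 and 39.3 FPKM in controls 1 and 2 (log2 change 1.03, SE 0.36, adjusted p = 0.192). Its Rspo1 values lay within a narrow range, and the spread was between the controls. Sp5, a transcription factor induced by Wnt, was at 11.9, 16.4 and 18.1 FPKM in Rspo1 cells and 5.9 and 2.52 FPKM in the controls (adjusted p = 0.0723). Myc, at 131, 96.7 and 138 FPKM in Rspo1 cells and 139 and 70.2 FPKM in the controls, and Ccnd1, at 62.2, 74.4 and 70.5 FPKM in Rspo1 cells and 101 and 51.6 FPKM in the controls, drive the cell cycle, and in both genes Rspo1 values overlapped the controls. None of the 8 transcription factor genes on the list passed limma's adjusted test. The number of list members that rose was 8 without control 1, 0 without control 2, 2, 1 and 1 without Rspo1 libraries 1, 2 and 3, and 9 without LGR5-ECD 3.

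**Figure D2:**
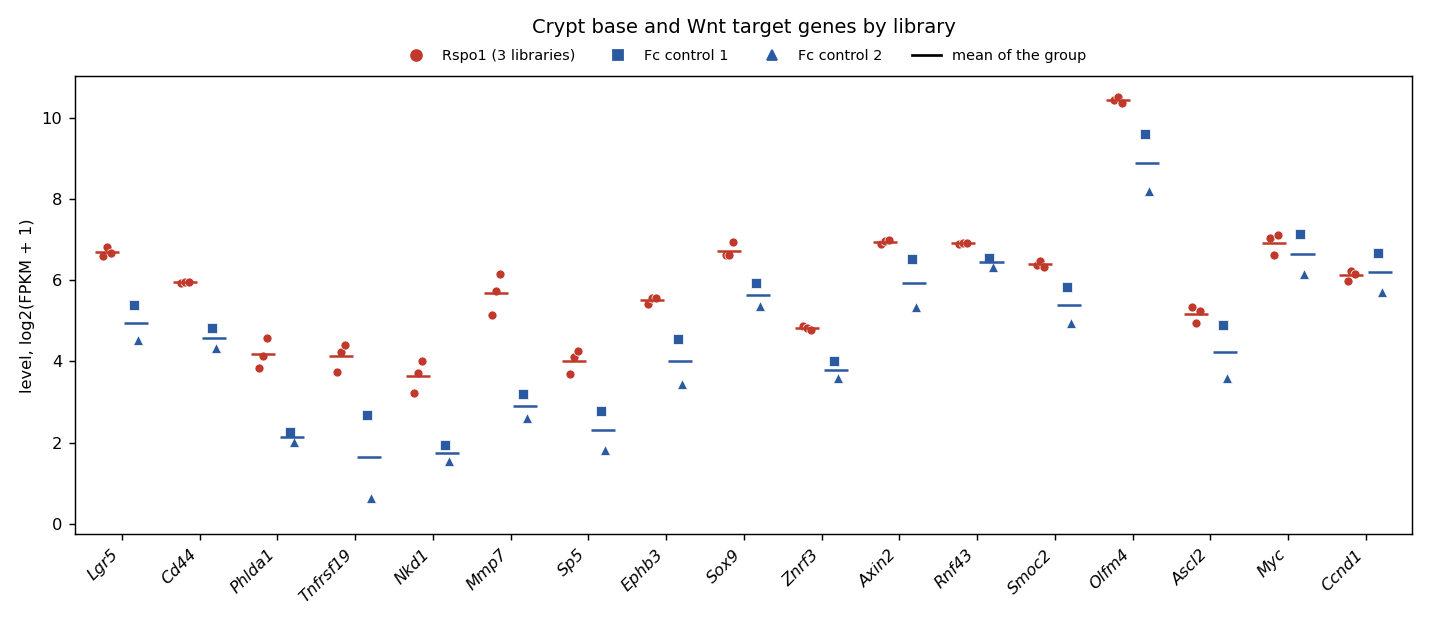
Levels of crypt base and Wnt target genes, log2(FPKM + 1), in the 3 Rspo1 libraries (left of each pair) and in Fc control 1 (square) and control 2 (triangle); horizontal lines are group means. Control 2 is below control 1 for most genes shown, and for Myc and Ccnd1 control 1 is at or above the Rspo1 libraries.

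Among reserve stem cell markers 1 of 8 fell and 0 rose, with a median log2 change of 0.79 (0.51 and 0.85 against controls 1 and 2). The 1 was Ly6a (Sca-1), a surface protein that interferon also induces, at 0.894, 0.397 and 3.54 FPKM in Rspo1 cells and 9.47 and 11.8 FPKM in the controls (log2 change -2.34, SE 0.43, adjusted p = 0.0318; up to 0.266, without control 2). Lrig1, a negative regulator of EGF receptors that marks a broad stem cell pool, was at 59.6, 69.7 and 54.3 FPKM in Rspo1 cells and 29.6 and 25.9 FPKM in the controls and just missed (adjusted p = 0.0558). Eph receptors and ephrins, which sort cells along the crypt axis, had 0 of 10 called by limma's adjusted test. Ephb3 was at 42, 46.2 and 46.5 FPKM in Rspo1 cells and 22.6 and 9.88 FPKM in the controls (adjusted p = 0.0954). Ephb2 overlapped, at 75.2, 90.5 and 88.4 FPKM in Rspo1 cells and 77.9 and 54.8 FPKM in the controls.

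Alpha-defensins, the antimicrobial peptides of Paneth cells, were the list with the highest median log2 change, 3.66 over 12 tested genes, and also the list on which the controls differed most. Their median was 1.93 against control 1 and 5.36 against control 2, and control 2 was 3.42 below control 1. Of the 12, 4 rose and 0 fell, where 0.672% of all genes rose, and 9 had every Rspo1 library above both controls, where 26.2% of all genes did. The count that rose was 8 without control 1 and 1 without control 2, 1, 0 and 3 without Rspo1 libraries 1, 2 and 3, and 7 without LGR5-ECD 3. The summed FPKM of the list was 3109.3, 2071.6 and 1644.6 in the Rspo1 libraries, against 664.2 in control 1 and 18.9 in control 2. In the LGR5-ECD libraries the sum was 1902.2, 4418.3 and 3907.6, also above both controls. Defensin genes are near-identical copies, so reads may have been split between them and values for single members are uncertain.

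Defa26 had 48.2, 40.7 and 24.7 FPKM in the Rspo1 libraries, 3.61 and 0 FPKM in controls 1 and 2, and a log2 change of 4.13 (SE 0.58, adjusted p = 0.0113). Defa3 had 277, 198 and 171 FPKM in Rspo1 cells and 34 and 0.95 FPKM in the controls (log2 change 4.68, adjusted p = 0.0325). For both genes control 2 was at or near 0 and control 1 was well above it. Defa21 and Defa22, whose promoter stretches above are identical, were below 4 FPKM in both controls. Defa22 was at 87.2, 52.3 and 11.2 FPKM in Rspo1 cells, 175, 136 and 476 FPKM in LGR5-ECD cells and 3.36 and 1.15 FPKM in the controls, and Rspo1 library 3 was the lowest of its group (log2 change 3.65, SE 0.75, adjusted p = 0.047). Defa21 was at 80.7, 49.4 and 12.2 FPKM in Rspo1 cells and 2.86 and 2.54 FPKM in the controls (log2 change 3.36, adjusted p = 0.047). In LGR5-ECD cells Defa21 was at 126, 127.5 and 407 FPKM. For Defa21 and Defa22 every LGR5-ECD library lay above every Rspo1 library and both controls. For Defa3 the LGR5-ECD libraries lay between the Rspo1 libraries and the controls. The LGR5-ECD libraries share these controls with Rspo1, and their difference from Fc was not tested here. Defa24, among the most abundant, was at 653, 410.1 and 369 FPKM in Rspo1 cells, 147 FPKM in control 1 and near 0 in control 2, and did not pass (adjusted p = 0.115).

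Of 23 other Paneth cell genes 7 rose and 0 fell in limma's test, where 0.672% of all genes rose. All 23 had a positive log2 change, where 62.9% of all genes did, and the median was 1.71 (1.23 against control 1 and 2.20 against control 2). The 7 were Rnase1, Mmp7, Pla2g2a, Reg4, Mptx2, Ang4 and Cd24a. Rnase1, a secreted ribonuclease, was at 180.2, 226 and 348 FPKM in Rspo1 cells, 23.3, 19.2 and 19.8 FPKM in LGR5-ECD cells and 29.3 and 11.2 FPKM in the controls. Every Rspo1 library was several-fold above all other libraries, and the log2 change of 3.66 (SE 0.37, adjusted p = 0.00334) kept its call without any single library. It was 3.00 against control 1 and 4.32 against control 2. Pla2g2a, a secreted phospholipase that kills bacteria, had 97.3, 129.5 and 132 FPKM in Rspo1 cells, 12.5, 6.89 and 6.17 FPKM in LGR5-ECD cells and 20.4 and 3.33 FPKM in the controls (log2 change 3.63, SE 0.54, adjusted p = 0.0142). Ang4, an angiogenin with antimicrobial activity, had 121, 88.1 and 159 FPKM in Rspo1 cells, 167, 165 and 173 FPKM in LGR5-ECD cells and 26.3 and 2.57 FPKM in the controls (log2 change 3.60, adjusted p = 0.0282). Both treated groups thus lay above both controls for Ang4, whereas Pla2g2a and Rnase1 were high in the Rspo1 libraries alone.

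Reg4, a secreted lectin, was at 32.4, 28.3 and 25.9 FPKM in Rspo1 cells and 5.33 and 0 FPKM in the controls, with an adjusted p of 0.0216. Mptx2, a pentraxin of Paneth cells, was at 25.5, 27.9 and 31.6 FPKM in Rspo1 cells and 5.94 and 0.612 FPKM in the controls, with an adjusted p of 0.0233. Both genes were low in control 1 and at or near 0 in control 2. Cd24a, a surface protein of Paneth and crypt base cells, was at 237, 240.0 and 361 FPKM in Rspo1 cells and 107 and 112 FPKM in the controls, which were nearly equal (log2 change 1.32, adjusted p = 0.0311). Lyz1, Paneth cell lysozyme, had 949, 759 and 437 FPKM in Rspo1 cells and 184 and 5.95 FPKM in the controls, which were far apart (log2 change 4.25, SE 1.06, adjusted p = 0.0834). Wnt3, the Wnt ligand that mouse Paneth cells give to stem cells, was at 3.01, 4.24 and 7.3 FPKM in Rspo1 cells and 1.75 and 0.215 FPKM in the controls (adjusted p = 0.0871). The count of the list that rose was 12 without control 1, 4 without control 2, 3, 2 and 2 without Rspo1 libraries 1, 2 and 3, and 11 without LGR5-ECD 3. Defensin and other Paneth cell genes were together lower in control 2 than in control 1, and the part of this in the calls was not tested.

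**Figure D3:**
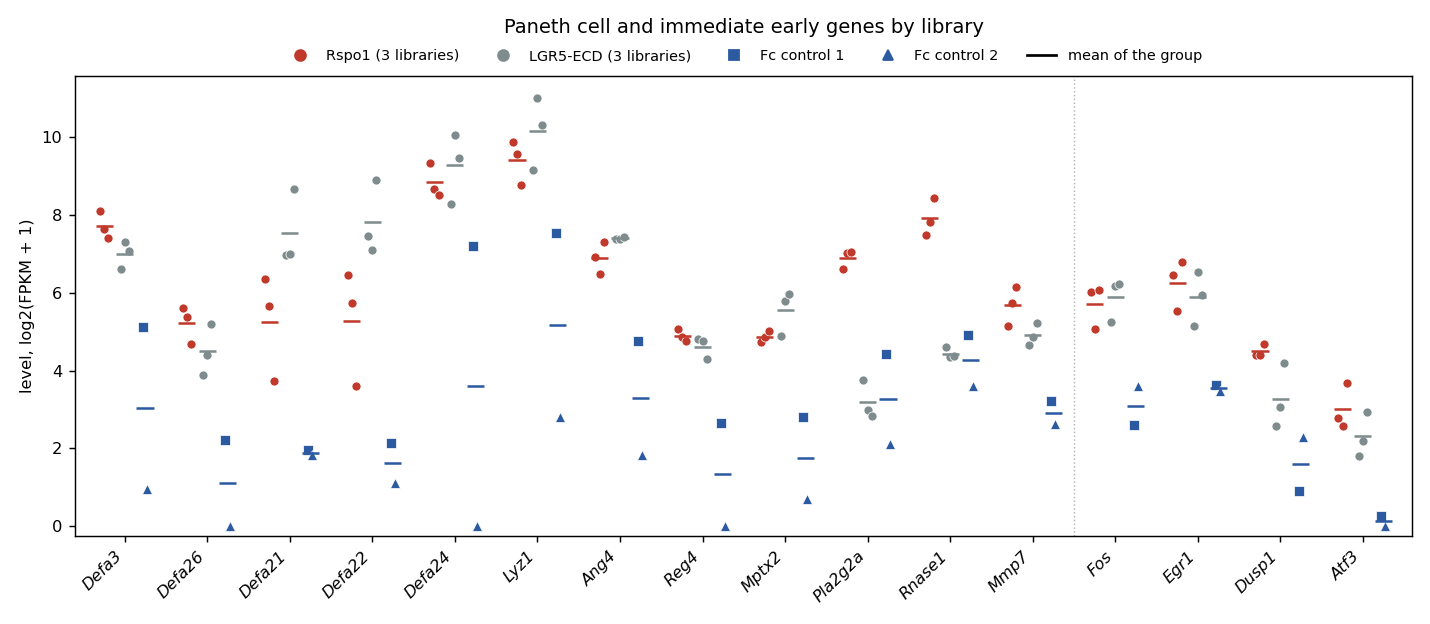
Levels of Paneth cell genes (left of the dotted line) and immediate early genes (right of it), log2(FPKM + 1), in the Rspo1, LGR5-ECD and Fc libraries from left to right for each gene; horizontal lines are group means. Defensins, Lyz1, Ang4, Reg4 and Mptx2 are high in both treated groups and lowest in control 2, while Rnase1 and Pla2g2a are high in Rspo1 libraries only.

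Of 24 goblet cell markers tested, 12 had every Rspo1 library above both controls and 2 had every one below, where 26.2% and 12% of all genes did. In limma's test 4 rose and 0 fell, where 0.672% of all genes rose (median log2 change 0.52, and 0.38 and 0.32 against controls 1 and 2). The 4 were Spink4, Foxa3, Ccl9 and Creb3l4. Spink4, a secreted protease inhibitor, was at 144, 167 and 129.9 FPKM in Rspo1 cells, 61.9, 206 and 192 FPKM in LGR5-ECD cells and 24.7 and 26.7 FPKM in the controls (log2 change 2.46, SE 0.43, adjusted p = 0.0282). Foxa3, a forkhead factor of secretory cells, was at 53.7, 55.5 and 58.2 FPKM in Rspo1 cells and 27.8 and 16.8 FPKM in the controls, with close replicates (log2 change 1.32, SE 0.23, adjusted p = 0.0282). Muc2, the main mucin, overlapped, at 81.7, 51.2 and 30.6 FPKM in Rspo1 cells and 46.6 and 84 FPKM in the controls (adjusted p = 0.795). Mucus genes varied widely among the Rspo1 libraries. Zg16, a lectin of the mucus layer, was at 286, 31.8 and 0.749 FPKM in Rspo1 libraries 1 to 3 and 65 and 484 FPKM in the controls, and Clca3 was at 19.6, 3.2 and 0.797 FPKM in Rspo1 cells and 22.7 and 64.7 FPKM in the controls. The count of goblet markers that rose was 3 without control 1, 0 without control 2, 0 without any 1 of the Rspo1 libraries and 5 without LGR5-ECD 3.

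Enteroendocrine markers gave 0 calls among 13 in limma's test. Chga, the granule protein chromogranin A, was at 7.22, 8.24 and 5.64 FPKM in Rspo1 cells and 1.7 and 2.27 FPKM in the controls (log2 change 1.42, adjusted p = 0.0877). Chgb was at 8.47, 11.6 and 5.72 FPKM in Rspo1 cells and 2.26 and 0 FPKM in the controls (adjusted p = 0.0627). Both had every Rspo1 library above both controls. Ghrl, the gene of the hormone ghrelin, was at 1.66, 5.83 and 0.892 FPKM in Rspo1 cells, against 7.07 FPKM in control 1 and 144 FPKM in control 2, so 1 control set its mean.

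Tuft cell markers had a median log2 change of -1.18 over 21 genes, with 1 called lower (Il17rb) and 1 called higher (Cd24a, named above). The list was 1.62 higher in control 2 than in control 1, and its median was -0.37 against control 1 and -1.86 against control 2. Il17rb, the receptor chain for interleukin-25, was at 1.65, 1.91 and 1.3 FPKM in Rspo1 cells and 5.85 and 8.45 FPKM in the controls (log2 change -1.63, SE 0.32, adjusted p = 0.0397). Dclk1, the most used tuft marker, was at 2.35, 1.64 and 2.23 FPKM in Rspo1 cells and 2.27 and 8.84 FPKM in controls 1 and 2. Control 1 lay within the Rspo1 range and control 2 far above it (log2 change -0.89, adjusted p = 0.308). Trpm5, the taste-transduction channel, followed the same order, at 6.92, 3.28 and 10.8 FPKM in Rspo1 cells and 8.14 and 41.2 FPKM in the controls. The count of members that fell was 10 without control 1, 0 without control 2, 0 without any 1 of the Rspo1 libraries and 3 without LGR5-ECD 3.

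Genes of mature enterocytes were more often lower than higher in Rspo1. Of 24 brush border and digestion genes 3 fell (Naaladl1, Krt20 and Ace), 1 rose (Eps8) and the median log2 change was -0.49. Of 30 transport and lipid genes 5 fell (Npc1l1, Fabp6, Apoa1, Slc6a20a and Car4), 0 rose and the median was -0.82. Among all genes 0.576% fell and 0.672% rose. Against controls 1 and 2 alone the medians were -0.55 and -0.58 for the brush border list and -0.66 and -0.88 for the transport list, and control 2 minus control 1 had medians of -0.12 and 0.06. Krt20, a keratin of mature surface cells, was at 4.53, 3.97 and 4.58 FPKM in the Rspo1 libraries and 13.6 and 16.4 FPKM in the controls. The groups were far apart and tight, with a log2 change of -1.57 (SE 0.20, adjusted p = 0.00695). Naaladl1, a brush border peptidase, was at 10.8, 6.53 and 6.37 FPKM in Rspo1 cells and 64.6 and 32.9 FPKM in the controls (log2 change -2.44, SE 0.32, adjusted p = 0.00707). Ace, the angiotensin-converting enzyme, was at 9.3, 9.88 and 9.48 FPKM in Rspo1 cells and 24.6 and 19 FPKM in the controls, and its log2 change of -1.10 had an adjusted p of 0.0314. Eps8, which caps actin filaments in microvilli, went the other way, with 28.3, 39 and 45.3 FPKM in Rspo1 cells and 16.6 and 13.8 FPKM in the controls (log2 change 1.23, adjusted p = 0.046).

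Npc1l1, the transporter that takes up dietary cholesterol, was at 16.8, 11.2 and 11.5 FPKM in Rspo1 cells and 44.3 and 49.1 FPKM in the controls (log2 change -1.77, SE 0.22, adjusted p = 0.00541). Fabp6, the ileal bile acid carrier, was at 1.17, 0.252 and 0 FPKM in Rspo1 cells, where library 3 was listed at 0, and 11.9 and 7.32 FPKM in the controls (log2 change -2.89, adjusted p = 0.0294). Apoa1, a protein of chylomicrons and HDL, was at 29.6, 20.9 and 33.5 FPKM in Rspo1 cells and 60.9 and 126 FPKM in the controls, which differed (log2 change -1.64, adjusted p = 0.0314). Slc6a20a, a proline transporter, was at 3.44, 2.6 and 2.49 FPKM in Rspo1 cells and 11.1 and 11.1 FPKM in the controls. Car4, a membrane carbonic anhydrase, was at 3.53, 0.141 and 0.564 FPKM in Rspo1 cells and 10.5 and 11.1 FPKM in the controls. The 2 log2 changes were -1.66 (adjusted p = 0.0314) and -2.56 (adjusted p = 0.0397). Among list members that did not pass, Sis, the sucrase-isomaltase, was at 3.86, 4.46 and 3.48 FPKM in Rspo1 cells and 6.62 and 9.42 FPKM in the controls (log2 change -0.86, adjusted p = 0.11), and Alpi, intestinal alkaline phosphatase, was at 17.2, 17.8 and 27.9 FPKM in Rspo1 cells and 28.1 and 76.3 FPKM in the controls, with control 1 close to the highest Rspo1 library (adjusted p = 0.183). Without control 2 the counts lower were 1 brush border gene and 0 transport genes, and without control 1 they were 5 and 4. Without Rspo1 libraries 1, 2 and 3 they were 2 each for brush border genes and 4, 1 and 1 for transport genes, and without LGR5-ECD 3 they were 6 and 7.

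Interferon pathway genes that fell in Rspo1 were transcription factors, sensors and effectors. Of 9 receptor and kinase genes 0 were called in limma's adjusted test. All 9 had a positive log2 change, where 62.9% of all genes did, and the median was 0.49 (0.30 and 0.58 against controls 1 and 2). Ifnar1, a chain of the type I interferon receptor, was at 8.13, 8.61 and 8.06 FPKM in Rspo1 cells and 6.07 and 5.2 FPKM in the controls, and Ifngr2, of the interferon-gamma receptor, was at 63.8, 78.7 and 92.1 FPKM in Rspo1 cells and 50.9 and 31.1 FPKM in the controls (adjusted p = 0.329 and 0.0975). Of 10 transcription factor genes 2 fell, Irf7 and Stat2, where 0.576% of all genes fell. Irf7, the interferon-induced factor that amplifies the response, was at 7.65, 7.26 and 15.3 FPKM in the Rspo1 libraries and 84.9 and 78.5 FPKM in the controls. The controls lay close together, the Rspo1 libraries were all far below them, and the log2 change was -2.97 (SE 0.37, adjusted p = 0.00558), -3.03 against control 1 and -2.92 against control 2. Its adjusted p was 0.0746 against control 1 alone and 0.0217 against control 2 alone. Stat2, which acts in a complex with IRF9, was at 4.16, 2.55 and 3.2 FPKM in Rspo1 cells and 12.8 and 12.1 FPKM in the controls (log2 change -1.66, SE 0.26, adjusted p = 0.0203). Irf9 had 11.7, 12.8 and 15.6 FPKM in Rspo1 cells and 25 and 16.9 FPKM in the controls, and Irf1, an early response factor, overlapped at 35.5, 33.2 and 42.3 FPKM in Rspo1 cells and 43.8 and 37 FPKM in the controls. The count of receptor, STAT and IRF genes that fell was 2 without control 1, 0 without control 2, 2, 1 and 1 without Rspo1 libraries 1, 2 and 3, and 3 without LGR5-ECD 3.

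Among nucleic acid sensors 2 of 15 fell and 0 rose, where 0.576% of all genes fell. The median log2 change was -0.52 (-0.57 against control 1 and -0.19 against control 2). Zbp1, a sensor of Z-form nucleic acid, was at 5.49, 4.05 and 5.46 FPKM in Rspo1 cells and 21.5 and 20.02 FPKM in the controls (log2 change -1.87, SE 0.22, adjusted p = 0.00457) and stayed below the threshold without any single library. Dhx58 (LGP2), a regulator of RNA helicase sensors, was at 1.21, 0.658 and 2.56 FPKM in Rspo1 cells and 7.94 and 11.2 FPKM in the controls (log2 change -2.15, adjusted p = 0.0217). Ddx58 (RIG-I) was at 4.73, 6.54 and 7.33 FPKM in Rspo1 cells and 17.7 and 8.41 FPKM in the controls and did not pass. Tmem173, which encodes STING, was on the other side, at 4.65, 9.49 and 8.91 FPKM in Rspo1 cells and 2.15 and 1.94 FPKM in the controls (adjusted p = 0.0877). The count that fell was 1 without control 2, 1, 1 and 2 without Rspo1 libraries 1, 2 and 3, and 3 without LGR5-ECD 3.

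Of 49 antiviral effector genes tested, 14 fell in Rspo1 and 0 rose, where 0.576% of all genes fell. A negative log2 change was found for 45, where 37.0% of all genes had one. Every Rspo1 library was below both controls for 41, where this held for 12% of all genes. Each of these counts includes Isg15, which had to differ, as described below. The median log2 change was -1.12, with -1.36 against control 1 and -1.04 against control 2. Mean log2(FPKM + 1) was 2.00, 1.99 and 2.19 in the Rspo1 libraries, 3.23, 2.84 and 2.76 in the LGR5-ECD libraries and 3.46 and 3.20 in the controls. The count that fell was 8 without control 1, 4 without control 2, 5, 6 and 7 without Rspo1 libraries 1, 2 and 3, and 23 without LGR5-ECD 3.

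The genes that fell included 6 of the oligoadenylate synthetase family, named for enzymes that sense double-stranded RNA. Oas2 had 0.994, 0.753 and 1.42 FPKM in the Rspo1 libraries, 10.9, 8.7 and 8.05 FPKM in the LGR5-ECD libraries and 19.1 and 30.3 FPKM in the controls. The LGR5-ECD libraries lay between the other groups. Its log2 change of -3.62 (SE 0.28, adjusted p = 0.00104) had the smallest adjusted p of all genes tested. Oas1a was at 6.79, 4.84 and 6.63 FPKM in Rspo1 cells, 35, 33.2 and 27.5 FPKM in LGR5-ECD cells and 39 and 35.5 FPKM in the controls. For Oas1a the LGR5-ECD libraries lay near the controls and the Rspo1 libraries well below (log2 change -2.44, SE 0.22, adjusted p = 0.00161). Oas1g, its close copy, was at 2.3, 2.47 and 3.51 FPKM in Rspo1 cells and 24.2 and 23.2 FPKM in the controls (log2 change -2.73, adjusted p = 0.00695), and reads of the copies may have been split between them. Oas3 was at 1.62, 0.949 and 2.47 FPKM in Rspo1 cells and 15.9 and 14.8 FPKM in the controls (log2 change -2.65, adjusted p = 0.0275). Oasl1 and Oasl2 also fell.

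Ifit1, which binds viral RNA lacking cap methylation, had 0.109, 0.399 and 0.953 FPKM in the Rspo1 libraries and 12.9 and 10.1 FPKM in the controls (log2 change -3.10, SE 0.33, adjusted p = 0.00366). Each of the 3 Rspo1 libraries was listed at 0 for Isg15, a ubiquitin-like modifier that was at 6.44 and 11.2 FPKM in the controls. Isg15 met the filter on low values only through the controls, so it had to differ, and its call among the 14 carries no weight of its own. Mx1, a GTPase that blocks influenza virus in mice, was likewise at 0 in each Rspo1 library and at 5.03 and 4.39 FPKM in the controls (adjusted p = 0.00818). No fold is given for these 2 genes. The values of Ifit1 belong to the promoter stretch printed above with 2 response elements. The Isg15 stretch holds 3, but Isg15 had to differ, so its values add nothing to that pairing. Usp18, which removes ISG15 from proteins, was at 0.165, 0.324 and 0.523 FPKM in Rspo1 cells and 5.2 and 5.0 FPKM in the controls (log2 change -2.20, adjusted p = 0.0282). Ifi27l2a was at 0.331, 2.37 and 0 FPKM in Rspo1 cells and 9.79 and 7.66 FPKM in the controls, and Ifi27l2b, a relative outside the list, was at 16.8, 15.5 and 17.6 FPKM in Rspo1 cells and 69.8 and 73.2 FPKM in the controls (log2 change -2.04, SE 0.19, adjusted p = 0.00161). Rtp4, Sp100 and Parp14 fell as well. Ifitm3, a membrane protein that blocks virus entry and was abundant in every library, did not pass, at 497, 390.4 and 739 FPKM in Rspo1 cells and 492 and 423 FPKM in the controls (adjusted p = 0.808). Of 12 interferon-induced GTPases all had a negative log2 change and only Mx1 passed; Irgm1, of the immunity-related GTPases, was at 5.69, 7.98 and 6.2 FPKM in Rspo1 cells and 18.5 and 11.7 FPKM in the controls (adjusted p = 0.0723).

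**Figure D4:**
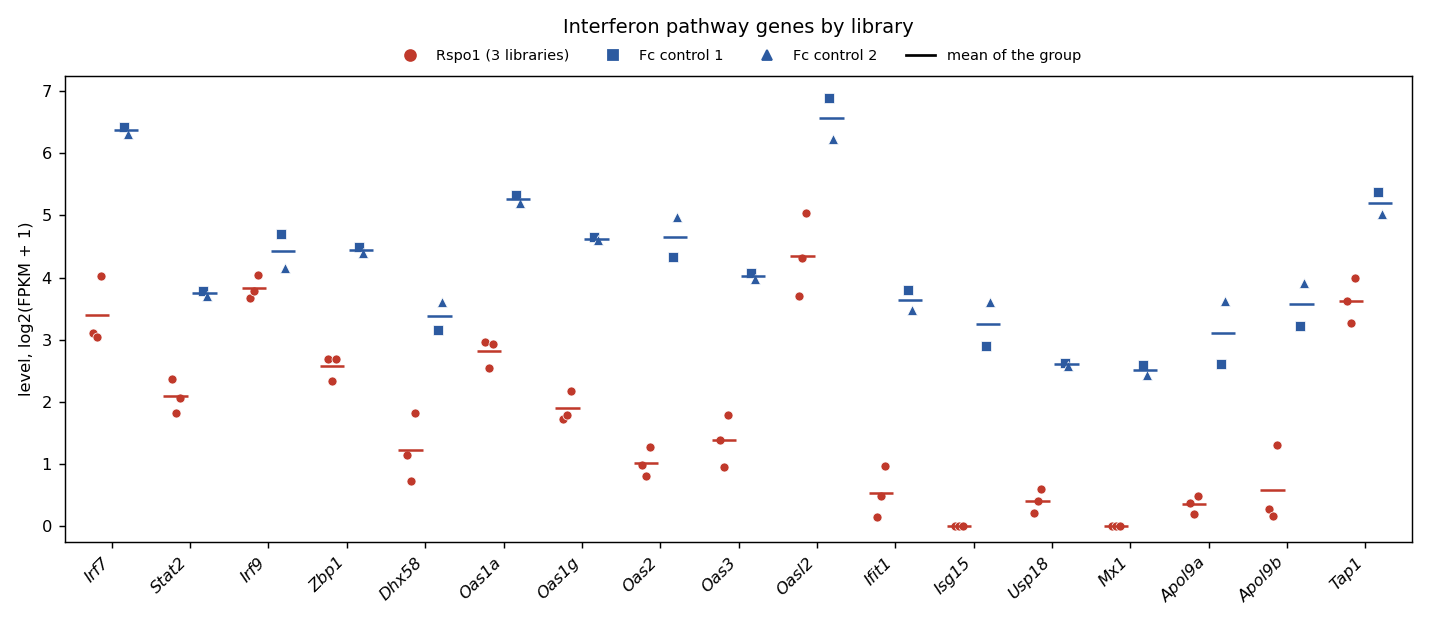
Levels of interferon pathway genes, log2(FPKM + 1), in the 3 Rspo1 libraries (left of each pair) and in Fc control 1 (square) and control 2 (triangle); horizontal lines are group means. For every gene shown the 3 Rspo1 libraries lie below both controls, and the controls are close to each other for Irf7, Stat2, Oas1a, Oas1g, Oas3, Usp18 and Mx1.

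Of the apolipoprotein L family 4 of 11 genes passed the filter on low values, and 3 of the 4 fell, where 0.576% of all genes tested fell. Apol9a had 0.302, 0.148 and 0.405 FPKM in the Rspo1 libraries and 5.12 and 11.3 FPKM in the controls (log2 change -2.76, SE 0.33, adjusted p = 0.00515), and Apol9b, its near-identical copy, had 0.212, 0.121 and 1.48 FPKM in Rspo1 cells and 8.34 and 14.1 FPKM in the controls (log2 change -2.99, adjusted p = 0.0131). Apol10a was at 0.269, 0 and 0.487 FPKM in Rspo1 cells, 10.3, 6.38 and 15 FPKM in LGR5-ECD cells and 4.7 and 2.7 FPKM in the controls (adjusted p = 0.040). Reads of these copies may have been split. The count of the 4 that fell was 2 without control 1, 1 without control 2 and 2, 1 and 2 without Rspo1 libraries 1, 2 and 3. In MHC class I presentation 1 of 24 fell, Tap1, a chain of the peptide transporter, at 11.3, 8.64 and 14.9 FPKM in Rspo1 cells and 40.7 and 31.4 FPKM in the controls (log2 change -1.58, SE 0.29, adjusted p = 0.0315). The call of Tap1 was lost without either control and without any 1 of the Rspo1 libraries, and 3 list members fell without LGR5-ECD 3 (adjusted p = 0.0692 without control 1 and 0.172 without control 2). The list had a median log2 change of -0.69, and 15 of 24 members had every Rspo1 library below both controls, where 12% of all genes did. Nlrc5, the transcriptional activator of class I genes, was at 2.08, 0.66 and 2.31 FPKM in Rspo1 cells and 6.61 and 10.1 FPKM in the controls (adjusted p = 0.0503), and H2-K1, a classical heavy chain, was at 136, 122 and 186 FPKM in Rspo1 cells and 264 and 207 FPKM in the controls. B2m, the shared light chain, overlapped, at 591, 397 and 731 FPKM in Rspo1 cells and 797 and 535 FPKM in the controls (adjusted p = 0.752). H2-Q5, outside the list, was at 14.8, 13.3 and 12.8 FPKM in Rspo1 cells and 60.6 and 58.8 FPKM in the controls (adjusted p = 0.00457). MHC class II genes had 0 of 8 called by limma's adjusted test and a median of 0.28; Ciita, their activator, was at 14.6, 12.7 and 11.9 FPKM in Rspo1 cells and 8.05 and 9.59 FPKM in the controls, and H2-DMa, which helps to load peptides, was at 46.1, 34.3 and 46.8 FPKM in Rspo1 cells and 29.6 and 19.6 FPKM in the controls.

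Immediate early genes, which respond within minutes to growth factors and also to tissue dissociation, were among the called genes. Of 20 tested, 9 rose in Rspo1 and 0 fell, where 0.672% of all genes rose, and 17 had every Rspo1 library above both controls, where 26.2% of all genes did. The median log2 change was 1.29, with 1.31 and 1.36 against controls 1 and 2. Fos, a subunit of AP-1, had 64, 32.5 and 66.5 FPKM in the Rspo1 libraries, 37.3, 71.5 and 74.6 FPKM in the LGR5-ECD libraries and 5.02 and 11.1 FPKM in the controls (log2 change 2.63, SE 0.41, adjusted p = 0.0185). Egr1, a zinc finger factor, had 87.1, 45.6 and 109 FPKM in Rspo1 cells, 34.6, 92.5 and 60.9 FPKM in LGR5-ECD cells and 11.5 and 10.2 FPKM in the controls (log2 change 2.70, adjusted p = 0.0169). Both genes were above the controls in all 6 treated libraries. Dusp1, a phosphatase that ends MAP kinase signals, had 20.1, 20.1 and 24.8 FPKM in Rspo1 cells, 4.93, 7.35 and 17.3 FPKM in LGR5-ECD cells and 0.884 and 3.87 FPKM in the controls (log2 change 2.90, adjusted p = 0.024). Atf3, a stress-induced factor, had 5.93, 4.96 and 11.9 FPKM in Rspo1 cells and 0.207 and 0 FPKM in the controls (log2 change 2.88, adjusted p = 0.0124). Jun was at 79.3, 80.04 and 99 FPKM in Rspo1 cells and 33.1 and 18.2 FPKM in the controls (log2 change 1.76, SE 0.26, adjusted p = 0.0131). Junb, Ier2, Ier3 and Btg2 rose too. The list mean of log2(FPKM + 1) was 4.08, 3.75 and 4.35 in the Rspo1 libraries, 3.19, 3.66 and 3.73 in the LGR5-ECD libraries and 2.58 and 2.37 in the controls. The count that rose was 7 without control 1, 1 without control 2, 3, 3 and 1 without Rspo1 libraries 1, 2 and 3, and 13 without LGR5-ECD 3.

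Cell cycle genes did not pass as a rule. None of 26 replication genes and none of 24 mitosis genes was called by limma's adjusted test, with medians of -0.09 and 0.35. The replication median was -0.30 against control 1 and 0.08 against control 2, and the mitosis median was 0.13 and 0.52. Mki67, the proliferation marker, was at 63.4, 65.5 and 66.5 FPKM in Rspo1 cells and 57.8 and 46 FPKM in the controls (log2 change 0.33, SE 0.19, adjusted p = 0.41). Uhrf1, which maintains DNA methylation, was at 14.9, 12.1 and 18.1 FPKM in Rspo1 cells and 30.6 and 24.1 FPKM in the controls, and Nusap1, a spindle protein, was at 15.8, 16 and 20.9 FPKM in Rspo1 cells and 11 and 7.7 FPKM in the controls (adjusted p = 0.127 and 0.101). Cyclin D, Myc and CDK inhibitor genes had a median log2 change of -0.03 (-0.21 and 0.12 against controls 1 and 2). Among these 14 genes 1 fell, Cdkn1a (p21), the inhibitor that p53 induces. It was at 6.65, 4.43 and 6.76 FPKM in the Rspo1 libraries and 16.6 and 23.1 FPKM in the controls, with no overlap (log2 change -1.59, SE 0.28, adjusted p = 0.0292; up to 0.236, without control 2). Of 19 p53 target and apoptosis genes Cdkn1a fell and Btg2 rose, at 29.3, 29.4 and 30.3 FPKM in Rspo1 cells and 16.6 and 10.5 FPKM in the controls, and the median log2 change of 0.10 turned to -0.05 under median-ratio scaling and was 0.04 and 0.35 against controls 1 and 2.

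Among other signals, 0 of 16 Notch genes and 0 of 17 EGF family and feedback genes were called by limma's adjusted test, with medians of 0.41 (0.14 and 0.56 against controls 1 and 2) and 0.80 (0.68 and 0.99). Hes1, the effector of Notch, was at 26.8, 24.2 and 27.3 FPKM in Rspo1 cells and 21.6 and 16.3 FPKM in the controls (adjusted p = 0.29), and Atoh1, the factor of secretory commitment, was at 13.7, 13.1 and 12.2 FPKM in Rspo1 cells and 10.8 and 3.51 FPKM in the controls (adjusted p = 0.25). Adam10, the protease that opens Notch, was at 9.65, 10.9 and 11.9 FPKM in Rspo1 cells and 7.15 and 3.0 FPKM in the controls. Hbegf, an EGF receptor ligand, was at 5.39, 2.9 and 4.41 FPKM in Rspo1 cells and 0.715 and 1.08 FPKM in the controls, close to the threshold (adjusted p = 0.0549). Of 15 BMP receptor and target genes 1 rose, the ligand gene Bmp7, at 27.6, 33 and 32.3 FPKM in Rspo1 cells and 15.6 and 13.7 FPKM in the controls (log2 change 1.03, SE 0.21, adjusted p = 0.046), and its call was lost without control 2 (adjusted p = 0.247). Id1, a direct target of BMP signals, was at 11.6, 6.85 and 12 FPKM in Rspo1 cells and 10.8 and 11.1 FPKM in the controls, and the groups overlapped. Its relative Id3 overlapped too, at 10.5, 5.42 and 13 FPKM in Rspo1 cells and 11 and 9.43 FPKM in the controls.

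General metabolic and housekeeping lists gave 0 calls. Of 77 cytosolic ribosomal protein genes 76 had a positive log2 change, where 62.9% of all genes did. Their median of 0.38 was 0.20 under median-ratio scaling and -0.01 under quantile scaling, so its direction depended on the scaling. Rpl39 was at 172, 163 and 253 FPKM in Rspo1 cells and 85.1 and 91.5 FPKM in the controls (adjusted p = 0.0558). Unfolded protein response (22 genes), cholesterol synthesis (24), fatty acid oxidation (26) and epithelial identity genes (16) had medians of 0.12, 0.33, 0.35 and 0.13 and none passed limma's adjusted test; under median-ratio scaling the first was -0.05 and the last -0.05. In the same order the medians were -0.11, 0.17, 0.03 and -0.03 against control 1 and 0.19, 0.49, 0.47 and 0.31 against control 2. The first and the last thus turned with the control, while the median of all genes moved from 0.04 to 0.25. Ppara, the receptor that drives fatty acid oxidation, was at 5.37, 2.86 and 2.78 FPKM in Rspo1 cells and 12.2 and 8.66 FPKM in the controls (adjusted p = 0.0945). Immune markers (4 of 29 in the table passed the filter) and mesenchymal, endothelial, neural and red cell markers (4 of 27) had none called either; Lcp1 was at 29.4, 29.5 and 27.2 FPKM in Rspo1 cells and 17.7 and 4.55 FPKM in the controls (adjusted p = 0.0916).

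**Figure D5:**
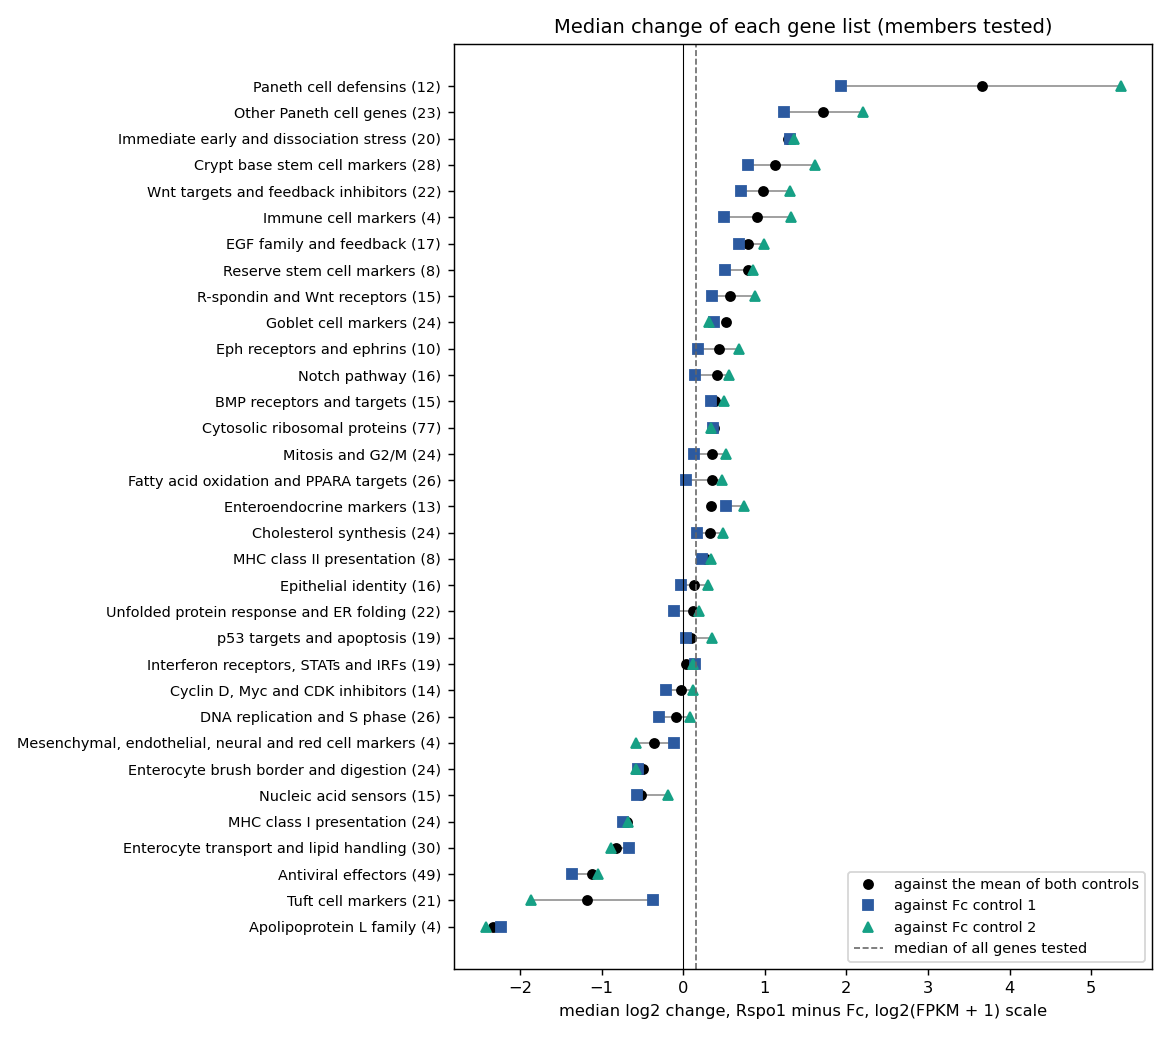
Median log2 change of each gene list, Rspo1 minus Fc on the log2(FPKM + 1) scale, against the mean of both controls (circle), control 1 alone (square) and control 2 alone (triangle), with the number of members tested. The dashed line is the median of all genes against the mean of both controls, 0.16. That median was 0.04 against control 1 alone and 0.25 against control 2 alone. The controls give far apart medians for defensins (1.93 and 5.36) and tuft cell markers (-0.37 and -1.86) and close ones for immediate early genes (1.31 and 1.36) and antiviral effectors (-1.36 and -1.04).

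The largest rises of all were of the predicted genes Gm7849, at 445, 210.0 and 187 FPKM in Rspo1 cells, 24.5 FPKM in control 1 and near 0 in control 2 (log2 change 5.69, adjusted p = 0.0298), and Gm7861, at 1986, 1266 and 998 FPKM in Rspo1 cells and 174 and 5.02 FPKM in the controls (log2 change 5.39, adjusted p = 0.0361). In LGR5-ECD cells Gm7849 was at 176, 254 and 418.5 FPKM and Gm7861 at 894, 1617 and 1722 FPKM. The libraries of both treated groups thus lay above both controls for these genes, and the LGR5-ECD difference was not tested here. Both genes were far higher in control 1 than in control 2. With predicted genes and some small non-coding RNA families set aside by name, 2 of the 12 largest rises stood outside all lists. Rmrp, the RNA of the RNase MRP complex, is itself non-coding but has a name outside those families. It was at 10.8, 14.2 and 9.72 FPKM in Rspo1 cells, 1.6, 5.77 and 8.83 FPKM in LGR5-ECD cells and 0.466 and 0 FPKM in the controls (log2 change 3.36, SE 0.48, adjusted p = 0.0124). Cldn4, a claudin of tight junctions, was at 29.1, 53.4 and 79.8 FPKM in Rspo1 cells, 8.16, 15.8 and 18.3 FPKM in LGR5-ECD cells and 3.35 and 7.37 FPKM in the controls (log2 change 3.08, SE 0.45, adjusted p = 0.0131).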

How the data were processed

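GFP-positive cells of mouse proximal jejunum were measured by bulk RNA sequencing in 3 Rspo1, 3 LGR5-ECD and 2 Fc libraries. The authors deposited FPKM values in 1 table of 24510 rows. The submitters' processing notes name TopHat, HTSeq, DESeq2, Cufflinks and mm9, with versions, roles and strand setting not given in the sources used here. Control columns name a group alone, and GFP-negative Fc cells (2 samples) were left out.

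Of these, 27 rows with a date for a symbol were left out, 391 identical rows were dropped and the rows of 89 symbols were summed, leaving 23969 symbols, of which 95.2% were in the gene name table. The test took the 11454 genes that reached 1 FPKM in 2 or more of 8 libraries. Log2(FPKM + 1) was fitted with limma 3.58.1 (eBayes with trend, group means, 5 residual degrees of freedom) in R 4.3.3 over all 8 libraries, without further scaling, for Rspo1 minus Fc. Tests were two-sided and each adjusted p (Benjamini-Hochberg) covers the 11454 genes, at a threshold of 0.05. SE denotes limma's moderated standard error. The steps were tested on simulated data. FPKM keeps no depth, so no count test was run and no counting interval is given. Single-control values come from the same fit without the other control. Promoter windows were from RefSeq on GRCm38.p6, matched by symbol, and are independent of the build of the reads. Python 3.11.15, pandas 2.3.3 and matplotlib 3.10.9 were used.

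The comparison, gene lists, design and alternatives were chosen with earlier results of these data known. Named genes were the 12 largest rises and 12 largest falls among called genes that averaged 5 FPKM or more in the group where they were higher, no overlap and no predicted or small non-coding name, up to 6 called members of each list by smallest p (or 2 members as values), and a set of key genes. Other list members given as values were chosen after their values were seen. Results for a few genes are not reported here. Lists are described by counts and medians, with no set test. The alternatives were another pseudocount, filter, scaling, set of libraries, row choice and variance model, and leaving out each library in turn.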

Additional observations from a re-analysis of the deposited data

How the results depend on the processing

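Under the 16 alternatives no called gene named here turned its direction, but the counts moved. The 77 higher and 66 lower genes became 33 and 41 with a pseudocount of 0.1 FPKM, and 7 and 22 with no filter on low values, over 16091 genes. After quantile normalization they were 120 and 173, and after median-ratio scaling 84 and 121; higher genes made up 41.0% of the calls after either scaling, against 53.8% as deposited. Fitting only the Rspo1 and Fc libraries gave 129 and 88 genes, and no variance trend 43 and 46. Leaving out each library in turn gave 8 to 362 higher and 13 to 160 lower genes. A filter at 5 FPKM gave 107 and 77, and the highest row per symbol 79 and 69. Of the 59 named genes that were called, 11 kept their call with no filter, 36 with a pseudocount of 0.1 FPKM, 42 with no variance trend, and 55 to 59 under the other 5 settings that left out no single library; without 1 library 13 to 59 did. The list medians of interferon receptors, STATs and IRFs (-0.14) and of p53 targets, unfolded protein response and epithelial genes (-0.05 each) turned negative under median-ratio scaling. Under quantile scaling the same lists turned (-0.10, -0.02, -0.08 and -0.12 in that order), and so did ribosomal genes (-0.01). Against control 2 the medians of replication genes (0.08) and of cyclin D, Myc and CDK inhibitors (0.12) turned positive, the latter also with the filter at 5 FPKM (0.22). Those of unfolded protein response (-0.11) and epithelial genes (-0.03) turned negative against control 1. With no filter the median of mesenchymal, endothelial, neural and red cell markers turned to 0.01. The cause of these moves was not tested. No paired analysis was possible because the control columns carry no replicate number from the labels. The group means rest on 2 controls that differ, read depth is unknown, and low genes near 0 limit what can be seen of losses.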

Other observations

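Further genes outside every list passed limma's adjusted test, and those named here were chosen after their values were seen. Thbs1, an extracellular matrix glycoprotein, was at 6.92, 5.92 and 6.21 FPKM in Rspo1 cells, 0.603, 0.452 and 0.671 FPKM in LGR5-ECD cells and 0.542 and 0.113 FPKM in the controls, and it met the filter on low values only through the Rspo1 libraries, so it had to differ. Lbh, a transcription cofactor and Wnt target, was at 84.9, 67.6 and 73.4 FPKM in Rspo1 cells, 8.3, 11.2 and 10.7 FPKM in LGR5-ECD cells and 22.3 and 11 FPKM in the controls (adjusted p = 0.00695). Pnrc1, a nuclear receptor coactivator, was at 38.4, 35.3 and 52.5 FPKM in Rspo1 cells and 10.1 and 8.89 FPKM in the controls (adjusted p = 0.00366). Lbh and Pnrc1 were called in all 16 alternatives. Wwtr1, which encodes the Hippo effector TAZ, was at 2.63, 4.92 and 6.81 FPKM in Rspo1 cells and 0.715 and 0.204 FPKM in the controls (adjusted p = 0.0361). Chrm3, the muscarinic acetylcholine receptor M3, was at 13.7, 11 and 14.6 FPKM in Rspo1 cells and 2.17 and 3.45 FPKM in the controls (adjusted p = 0.0169). Bhlha15 (MIST1), a factor of secretory cells, was at 5.5, 9.12 and 7.29 FPKM in Rspo1 cells and 0.479 and 0.615 FPKM in the controls (adjusted p = 0.0282). Rnase4, which neighbours the angiogenin genes, was at 97.6, 109 and 137 FPKM in Rspo1 cells and 44.9 and 22.4 FPKM in the controls (adjusted p = 0.0203).

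Lower genes outside the lists included metabolic and signalling genes. Rasa4, a Ras GTPase-activating protein, was at 2.74, 2.85 and 3.59 FPKM in Rspo1 cells, 4.18, 4.37 and 4.29 FPKM in LGR5-ECD cells and 11.8 and 11.5 FPKM in the controls (log2 change -1.65, SE 0.24, adjusted p = 0.0124). Nanos3, an RNA-binding protein known from germ cells, was at 0, 0 and 0.191 FPKM in Rspo1 cells, listed at 0 in all 3 LGR5-ECD libraries and at 3.23 and 5.31 FPKM in the controls; it met the filter on low values only through the controls, so it had to differ. Pygl, liver glycogen phosphorylase, was at 0.391, 0.137 and 0.19 FPKM in Rspo1 cells, 2.12, 0.779 and 1.62 FPKM in LGR5-ECD cells and 3.07 and 7.04 FPKM in the controls (adjusted p = 0.0275), and Tcirg1, a subunit of the proton pump V-ATPase, was at 24.9, 31.6 and 27.4 FPKM in Rspo1 cells, 50.8, 42.6 and 34 FPKM in LGR5-ECD cells and 70.5 and 97.5 FPKM in the controls (adjusted p = 0.0159). Mlxipl (ChREBP), a carbohydrate-responsive factor, was at 85.8, 66.6 and 72.9 FPKM in Rspo1 cells, 123, 115 and 107 FPKM in LGR5-ECD cells and 156 and 164 FPKM in the controls (adjusted p = 0.0282). Nr1i3, the xenobiotic receptor CAR, was at 0, 0.758 and 0.527 FPKM in Rspo1 cells, 4.34, 5.37 and 3.18 FPKM in LGR5-ECD cells and 4.31 and 4.96 FPKM in the controls (adjusted p = 0.0222). For Rasa4, Nanos3, Pygl, Tcirg1 and Mlxipl the libraries of both treated groups lay below both controls; the LGR5-ECD difference was not tested here. Enzyme genes of enterocytes outside the lists also fell: Enpp7, an alkaline sphingomyelinase of the brush border, was at 2.24, 1.65 and 2.51 FPKM in Rspo1 cells, 28, 24.9 and 15.8 FPKM in LGR5-ECD cells and 12.8 and 8.87 FPKM in the controls (log2 change -1.91, adjusted p = 0.0169), and Ces2e, a carboxylesterase, was at 10.2, 8.34 and 7.63 FPKM in Rspo1 cells, 49.7, 68 and 75.7 FPKM in LGR5-ECD cells and 27.8 and 20.1 FPKM in the controls (log2 change -1.35, adjusted p = 0.0314).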
